A study of Mus musculus with 6 samples.

Results

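The miR-181 family was followed through extracellular vesicles (EVs) of 2 neural cell types by its 4 mature 5p members, mmu-miR-181a-5p, mmu-miR-181b-5p, mmu-miR-181c-5p and mmu-miR-181d-5p. The members were taken by name from the mature miRNA rows of the count table, and all 4 were found among 902 mature rows (61949 rows in all). Small RNA libraries came from EVs of cultured cortical astrocytes (astrocyte EVs, 3 libraries) and from EVs of primary neural stem cells of the subventricular zone (NSC EVs, 3 libraries), both from CD1 mice. The study cultured the astrocytes from dorsal cortices of pups at postnatal day 4 and shook off microglia and oligodendrocytes. It then split the cells into exosome-free medium. EVs were collected by serial centrifugation from the medium of the last plating, which held fetal bovine serum. The age of the mice behind the NSCs, called neonatal by the study, and the medium of those cells are not stated in the sources used here. No transgene or treatment distinguished the groups, and pups of both sexes were pooled. The labels leave unstated whether the 3 replicates of an EV type were separate cultures, and a p-value here reflects only the variation among these libraries, which may be technical.

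A miRNA guides Argonaute proteins to mRNAs that pair with its seed, bases 2 to 8 from the 5′ end, and the paired mRNAs are repressed. MiR-181 members are abundant in lymphocytes, where miR-181a raises the sensitivity of T-cell receptor signaling, and in brain, where they have been linked to astrocyte survival under stress, mitochondrial function and inflammation. The hairpin of each miRNA can yield a 5p arm and a 3p arm, and for miR-181 the 5p arm is the one usually loaded into Argonaute.

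The 4 mature sequences are shown because they decide which reads can be told apart (5′ to 3′, from RefSeq on GRCm38.p6, seed in capitals).
miR-181a-5p: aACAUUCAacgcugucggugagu
miR-181b-5p: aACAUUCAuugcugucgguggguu
miR-181c-5p: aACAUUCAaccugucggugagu
miR-181d-5p: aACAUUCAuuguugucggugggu
All 4 shared 1 seed, and no other name among the 1679 mature mouse miRNAs of the RefSeq table had it. Counted from 1 at the 5′ end, miR-181a-5p differed from miR-181b-5p by A9U, C10U and A21G apart from the extra last base of miR-181b-5p, and from miR-181c-5p by the removal of base 11. MiR-181b-5p and miR-181d-5p differed by the single change C12U apart from that base. How many mismatches the authors allowed, and how reads of several loci were counted, is not stated in the sources used here, so counts of members that differ by 1 base are uncertain to that extent.

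Of the 6 miR-181 hairpins, 4 carry the a and b members in 2 clusters and 2 carry the c and d members in 1 cluster (positions on mm10). On chromosome 1, plus strand, mir-181a-1 (137966455 to 137966541) and mir-181b-1 (137966639 to 137966718) lay 97 bases apart in an intron of the noncoding gene Gm4258, and both overlapped an exon of the lincRNA A430106G13Rik. On chromosome 2, plus strand, mir-181a-2 (38852735 to 38852810) and mir-181b-2 (38853830 to 38853918) lay 1019 bases apart inside an intron of Nr6a1, a nuclear receptor gene on the opposite strand. On chromosome 8, minus strand, mir-181c (84178873 to 84178961) and mir-181d (84178716 to 84178787) lay 85 bases apart in an intron of Nanos3, a germ cell RNA-binding protein gene on the same strand. The 5p arms of mir-181a-1 and mir-181a-2 are identical, as are those of mir-181b-1 and mir-181b-2, so the rows of miR-181a-5p and miR-181b-5p hold the chromosome 1 and chromosome 2 clusters together.

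The 3p arms separate most of these loci and are shown for that reason, from the same source.
miR-181a-1-3p: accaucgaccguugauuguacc
miR-181a-2-3p: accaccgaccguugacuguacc
miR-181b-1-3p: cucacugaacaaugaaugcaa
miR-181c-3p: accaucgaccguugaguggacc
Counted from 1 at the 5′ end, miR-181a-1-3p (chromosome 1) and miR-181a-2-3p (chromosome 2) differed by U5C and U16C, and miR-181a-1-3p and miR-181c-3p by U16G and U19G. The table places miR-181a-2-3p at 38852788 to 38852809 and RefSeq at 38852785 to 38852806. The counted row of miR-181b-5p ends at 137966672 and RefSeq at 137966673, without the last base shown above. For miR-181b-1-3p these ends are 137966708 and 137966710. MiR-181b-2-3p and miR-181d-3p were not analysed here.

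Mature miRNAs took 182075 to 399211 counts per library in astrocyte EVs and 177093 to 259560 counts per library in NSC EVs, which was 0.212% to 0.538% of all counts in the table. CPM below are counts scaled to 1e+06 mature miRNA counts per library after TMM normalization, and a count of 0 allows up to 3 counts, or 7.51 to 16.9 CPM before that scaling. Astrocyte EV replicate 3 stood apart from the other astrocyte EV libraries: miR-9-5p, a miRNA of neural progenitors, was counted 262, 388 and 15329 times in astrocyte EVs (replicates 1 to 3), against 30807, 29480 and 15706 times in NSC EVs, and miR-143-3p, of mesenchymal cells, had 10763, 10736 and 1220 counts against 264, 113 and 93. The fold changes of the tested miR-181 rows are therefore also given without that library. For most of the lists and seed families set beside them, calls, medians or single fold changes are given so too. Of 256 mature miRNAs tested, 66 (25.8%) were lower and 57 (22.3%) higher in astrocyte EVs at an adjusted p under 0.05, and 96 lower and 32 higher of 270 when library size was taken over all non-hairpin rows.

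All 4 members fell in astrocyte EVs relative to NSC EVs, beside 25.8% of tested miRNAs, and no member's groups overlapped, beside 36.3% of tested miRNAs for which every astrocyte EV library was below every NSC EV library. The 2 members of the a and b clusters fell 2.77-fold and 5.38-fold and the 2 of the c and d cluster fell 5.74-fold and 10.9-fold. EV number and RNA per EV cannot be told apart in such bulk libraries, so each value is a share of the miRNA that was sequenced.

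The most abundant member, mmu-miR-181a-5p, had 18314, 17135 and 34594 CPM in astrocyte EVs, against 93509, 47723 and 53111 CPM in NSC EVs. Astrocyte EV replicate 3 was the highest of its group and NSC EV replicate 1 the highest of the other, and the nearest libraries of the groups were 34594 and 47723 CPM. The log2 fold change was -1.47 ± 0.46 (SE, 95% interval -2.55 to -0.40; edgeR quasi-likelihood test, Benjamini-Hochberg adjusted p = 0.0321), and -2.05 without astrocyte EV replicate 3 (adjusted p = 0.00366). The call was lost without astrocyte EV replicates 1 and 2 (adjusted p = 0.135 and 0.0995) and without NSC EV replicates 1, 2 and 3 (0.250, 0.0661 and 0.0904), and the log2 fold change was -0.81 without NSC EV replicate 1, the library in which the family was highest. It ranked 12 of 902 mature rows by mean CPM in astrocyte EVs and 4 in NSC EVs.

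The other member of these clusters, mmu-miR-181b-5p, had 3639, 3965 and 6984 CPM in astrocyte EVs, against 38324, 19140 and 21061 CPM in NSC EVs. The groups did not overlap, with 6984 CPM in the highest astrocyte EV library and 19140 CPM in the lowest NSC EV library. The log2 fold change was -2.43 ± 0.45 (SE, 95% interval -3.48 to -1.37; edgeR quasi-likelihood test, Benjamini-Hochberg adjusted p = 0.00505), and -2.97 without astrocyte EV replicate 3 (adjusted p = 0.000914). It passed in all 6 omissions of 1 library (adjusted p = 0.000914 to 0.0334), with -1.75 without NSC EV replicate 1. By mean CPM it ranked 38 in astrocyte EVs and 8 in NSC EVs.

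The upstream member of the Nanos3 cluster, mmu-miR-181c-5p, had 765, 453 and 2253 CPM in astrocyte EVs, from 161, 90 and 716 counts, against 8578, 4825 and 6571 CPM in NSC EVs. The astrocyte EV libraries spread 4.97-fold between lowest and highest, the NSC EV libraries 1.78-fold. The log2 fold change was -2.52 ± 0.63 (SE, 95% interval -3.99 to -1.05; edgeR quasi-likelihood test, Benjamini-Hochberg adjusted p = 0.0143), and -3.56 without astrocyte EV replicate 3 (adjusted p = 0.00066). The call was lost without astrocyte EV replicate 1 (adjusted p = 0.0656) and without NSC EV replicates 1, 2 and 3 (0.110, 0.0560 and 0.0632), and the log2 fold change was -1.93 without NSC EV replicate 1. By mean CPM it ranked 72 in astrocyte EVs and 21 in NSC EVs.

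The downstream member of that cluster, mmu-miR-181d-5p, had 95, 72 and 683 counts in astrocyte EVs, against 4681, 1632 and 1530 counts in NSC EVs. After scaling, the highest astrocyte EV library was at 2150 CPM, against 15697, 7332 and 9466 CPM in NSC EVs. Astrocyte EV replicate 3 was again the highest of its group, with the widest spread of the 4 members (5.93-fold). The log2 fold change was -3.45 ± 0.78 (SE, 95% interval -5.27 to -1.63; edgeR quasi-likelihood test, Benjamini-Hochberg adjusted p = 0.00934), and -4.89 without astrocyte EV replicate 3 (adjusted p = 0.000174). Of the 6 omissions of 1 library, that of NSC EV replicate 1 ended the call (-2.71, adjusted p = 0.0673). By mean CPM it ranked 78 in astrocyte EVs and 13 in NSC EVs.

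**Figure D1:**
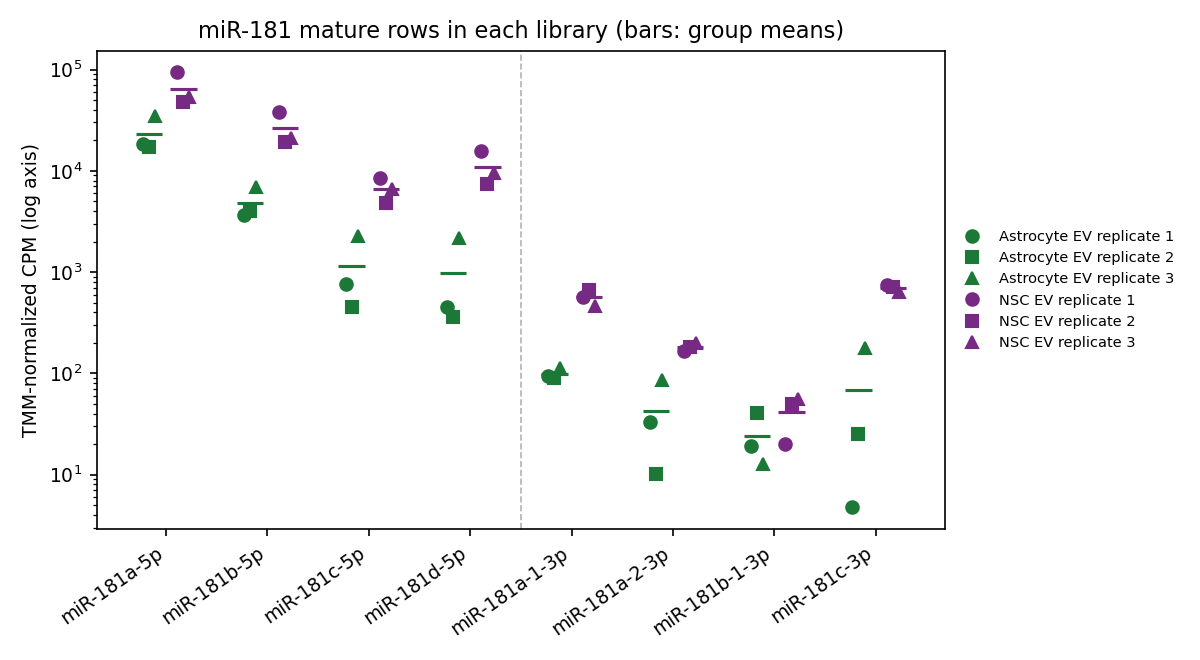
TMM-normalized CPM (log axis) of the 4 miR-181 5p members, left of the dashed line, and the 4 3p arms, right of it, in each of 3 astrocyte EV libraries (green) and 3 NSC EV libraries (purple), with bars at the group means. Every astrocyte EV library lies below every NSC EV library for all rows but miR-181b-1-3p, and astrocyte EV replicate 3 is the highest of its group for each 5p member.

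Together the members made up 2.68%, 2.08% and 3.66% of mature miRNA counts in astrocyte EVs (2.81% ± 0.799, SD, n = 3), against 17.9%, 8.64% and 8.23% in NSC EVs (11.6% ± 5.49, SD, n = 3). NSC EV replicate 1 held the highest share of the 6 libraries, and the 95% Wilson intervals, which cover counting error only, were no wider than 17.8% to 18.1% for it. The other NSC EV libraries were close to each other and above every astrocyte EV library.

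The make-up of the family also differed between the EV types. The chromosome 8 members miR-181c-5p and miR-181d-5p made up 5.25%, 3.72% and 9.58% of the family's counts in astrocyte EVs (6.18% ± 3.04, SD, n = 3), against 15.5%, 15.4% and 17.8% in NSC EVs (16.2% ± 1.34, SD, n = 3). MiR-181a-5p made up 79.0%, 78.2% and 75.2% in astrocyte EVs, against 59.9%, 60.4% and 58.9% in NSC EVs. The NSC EV libraries were nearly alike in both shares, although their summed levels were not, and the groups did not overlap in either.

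For each library the a and b counts were divided by the c and d counts, a ratio that needs no normalization between libraries. The a and b members outnumbered the c and d members 18.0, 25.8 and 9.44 times in astrocyte EVs, against 5.43, 5.50 and 4.62 times in NSC EVs. The log2 ratio averaged 4.03 ± 0.73 across astrocyte EVs and 2.37 ± 0.14 across NSC EVs (SD, n = 3 each), a difference of 1.66 with no overlap, and of 2.06 without astrocyte EV replicate 3. As a score over chosen members this ratio carries no p-value.

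The 6 pairs of members were compared in the same way, by the log2 ratio of their counts within a library. The ratio of miR-181c-5p to miR-181d-5p, neighbours on 1 strand, changed side: it was 1.69, 1.25 and 1.05 in astrocyte EVs, with miR-181c-5p ahead in 3 of 3 libraries, against 0.547, 0.658 and 0.694 in NSC EVs, with miR-181d-5p ahead in 3 of 3. The counts of miR-181c-5p and miR-181d-5p were 161 and 95 in astrocyte EV replicate 1. They were closer in astrocyte EV replicate 2, at 90 and 72, and in replicate 3, at 716 and 683.

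The ratio of miR-181a-5p to miR-181b-5p was tight within each EV type, at 5.03, 4.32 and 4.95 in astrocyte EVs, against 2.44, 2.49 and 2.52 in NSC EVs. Their log2 ratio was higher in astrocyte EVs by 0.94, with SDs of 0.12 in astrocyte EVs and 0.02 in NSC EVs, and by 0.91 without astrocyte EV replicate 3. The neighbours of the chromosome 8 cluster had a difference of similar size (1.05 on the log2 scale).

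Across clusters, the log2 ratio of miR-181a-5p was higher in astrocyte EVs by 1.33 to miR-181c-5p and by 2.38 to miR-181d-5p, and that of miR-181b-5p to miR-181d-5p was higher by 1.44. The groups did not overlap for these 3 ratios or for the 2 within clusters. Each of the 5 gave a p of 0.1 in an exact two-sided permutation test (0.12 after Benjamini-Hochberg adjustment over 6 pairs). That p is the smallest this test can give. How often ratios between other miRNAs separate the groups in this way was not examined. The ratio of miR-181b-5p to miR-181c-5p overlapped: it was 4.75, 8.70 and 3.10 in astrocyte EVs, against 4.47, 3.97 and 3.20 in NSC EVs (log2 difference 0.39, exact permutation p = 0.5, adjusted 0.5). The size of the fall thus ran from a over b and c to d, and the exact test used for these ratios could not go below 0.1 with 3 libraries against 3.

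**Figure D2:**
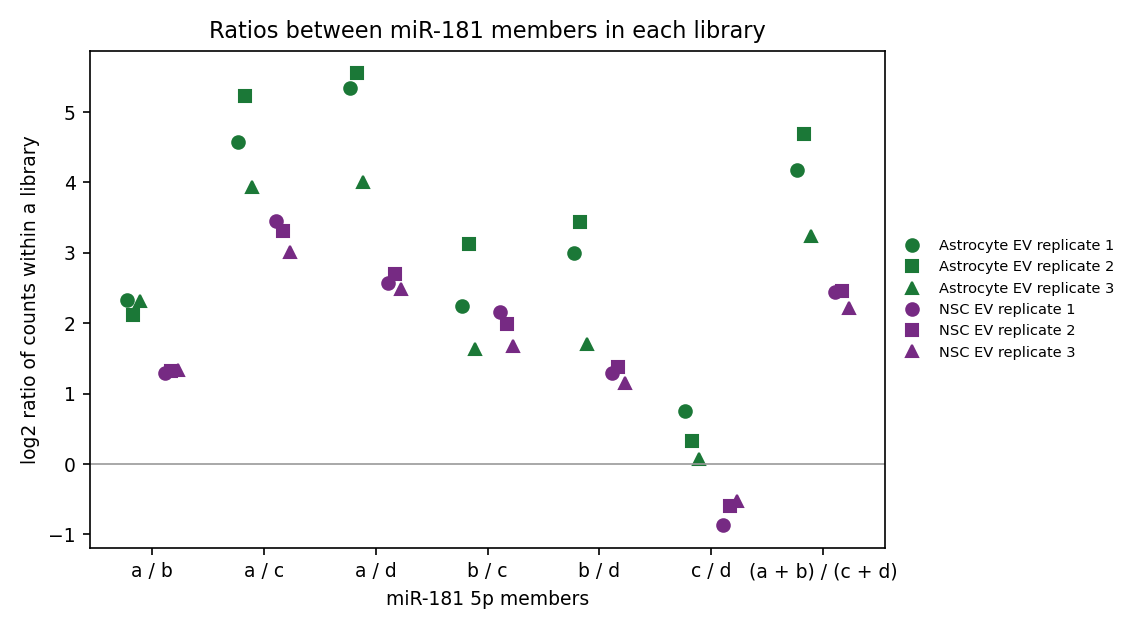
Log2 ratio of the counts of each pair of miR-181 5p members, and of a plus b to c plus d, within each of 3 astrocyte EV libraries (green) and 3 NSC EV libraries (purple); 0 means equal counts. The groups overlap only for b to c, and for c to d the astrocyte EV libraries lie above 0 and the NSC EV libraries below it.

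The 3p arms, which are usually degraded after the hairpin is cut, were far less abundant. MiR-181a-1-3p, from chromosome 1, had 20, 18 and 36 counts in astrocyte EVs, against 171, 148 and 74 counts in NSC EVs. After scaling, its astrocyte EV libraries, replicate 3 included, spread only 1.25-fold. It fell 5.64-fold (log2 fold change -2.50 ± 0.41, SE; edgeR quasi-likelihood test, Benjamini-Hochberg adjusted p = 0.00376; -2.76 without astrocyte EV replicate 3).

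MiR-181a-2-3p, from chromosome 2, had 7, 2 and 27 counts in astrocyte EVs, against 50, 40 and 32 counts in NSC EVs. The groups did not overlap, but the log2 fold change of -2.03 ± 0.75 (SE) did not pass (edgeR quasi-likelihood test, Benjamini-Hochberg adjusted p = 0.0581), and it passed without astrocyte EV replicate 3 (-3.10, adjusted p = 0.00881). Chromosome 1 gave 74.1%, 90.0% and 57.1% of the counts of both a 3p arms in astrocyte EVs, from 27, 20 and 63 counts, against 77.4%, 78.7% and 69.8% in NSC EVs. The groups overlapped, so a shift between the chromosome 1 and chromosome 2 clusters was not detectable from the 3p arms at this depth.

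MiR-181c-3p, from chromosome 8, had 1, 5 and 56 counts in astrocyte EVs, against 222, 157 and 103 counts in NSC EVs. Astrocyte EV replicate 3 held most of the astrocyte EV counts, and the groups did not overlap. It fell 9.74-fold (log2 fold change -3.28 ± 1.03, SE; edgeR quasi-likelihood test, Benjamini-Hochberg adjusted p = 0.0321; -5.69 without that library), but leaving out astrocyte EV replicate 2 gave an adjusted p of 0.0810, and leaving out NSC EV replicates 1, 2 and 3 gave 0.136, 0.107 and 0.0892. MiR-181b-1-3p did not reach the count filter and was not tested, with 4, 8 and 4 counts in astrocyte EVs, against 6, 11 and 9 counts in NSC EVs.

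The share of the 3p arm in the counts of both arms was lower in astrocyte EVs for miR-181a and miR-181c and overlapped between the EV types for miR-181b. For miR-181a (both loci) it was 0.696%, 0.585% and 0.570% in astrocyte EVs, against 0.786%, 1.74% and 1.22% in NSC EVs, with overlapping 95% Wilson intervals for astrocyte EV replicate 1 (0.478% to 1.01%) and NSC EV replicate 1 (0.690% to 0.896%). For miR-181c it was 0.617%, 5.26% and 7.25% in astrocyte EVs, against 7.99%, 12.8% and 8.84% in NSC EVs, and the 95% Wilson intervals of astrocyte EV replicate 2 (2.27% to 11.7%) and replicate 3 (5.63% to 9.30%) overlapped those of NSC EVs (7.03% to 14.7% over the 3 libraries). The library values of miR-181a and miR-181c did not overlap between the groups, and the difference was not tested. MiR-181b-1-3p was 0.519%, 1.01% and 0.180% of its own counts plus those of miR-181b-5p in astrocyte EVs (mean 0.569%), against 0.0525%, 0.258% and 0.264% in NSC EVs (mean 0.191%), from 4 to 11 counts per library.

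The hairpin rows show how the table handles reads of the 2 a and b clusters. Both a hairpins held the counts of miR-181a-5p: that of mir-181a-2 equaled miR-181a-5p plus miR-181a-2-3p exactly in all 6 libraries. The mir-181a-1 hairpin differed from miR-181a-5p plus miR-181a-1-3p by 9, -4 and 8 counts in astrocyte EVs, and by 15, 3 and 2 in NSC EVs. The hairpins of mir-181c and mir-181d equaled the sums of their arms in the table, and mir-181b-2 equaled miR-181b-5p, in all 6. The hairpin of mir-181b-1 held fewer counts than that of mir-181b-2, with 744, 759 and 2126 against 766, 787 and 2219 in astrocyte EVs, and 10184, 3707 and 2906 against 11429, 4260 and 3404 in NSC EVs.

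The b hairpins are shown because they part directly after the 5p arm (RefSeq, GRCm38.p6, 5p arm in capitals).
Mir181b-1: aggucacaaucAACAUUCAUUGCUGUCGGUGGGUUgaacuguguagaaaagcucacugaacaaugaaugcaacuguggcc
Mir181b-2: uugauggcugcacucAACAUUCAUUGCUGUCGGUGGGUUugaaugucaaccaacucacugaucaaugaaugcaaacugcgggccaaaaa
The first base after the arm differed (G1U from Mir181b-1 to Mir181b-2, counted from 1 after the arm). The excess of mir-181b-2 over mir-181b-1 was 22, 28 and 93 counts in astrocyte EVs, or 2.87%, 3.56% and 4.19% of the mir-181b-2 row, against 1245, 553 and 498 counts in NSC EVs, or 10.9% to 14.6%. The shares averaged 3.54% ± 0.66 in astrocyte EVs and 12.8% ± 1.87 in NSC EVs (SD, n = 3 each), with no overlap. Which reads made up the excess cannot be seen in a count table, and the difference was not tested.

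**Figure D3:**
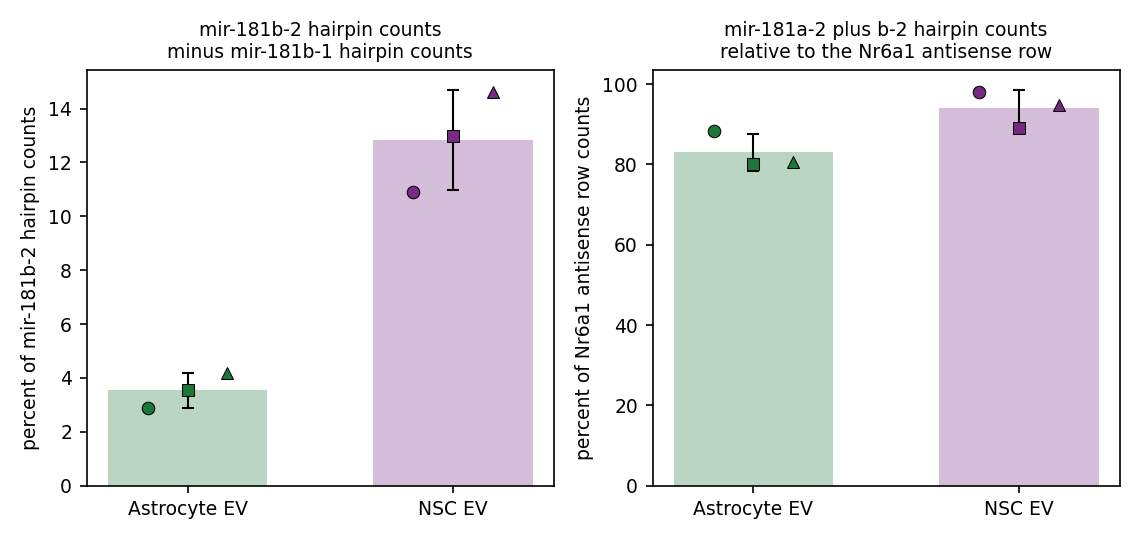
Left, the excess of mir-181b-2 over mir-181b-1 hairpin counts as a percent of mir-181b-2; right, the sum of mir-181a-2 and mir-181b-2 hairpin counts as a percent of the Nr6a1 antisense row. Bars are means, error bars SD over 3 libraries, and points single libraries (circle, square and triangle for replicates 1, 2 and 3). Both panels lie lower in the 3 astrocyte EV libraries than in the 3 NSC EV libraries.

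The genes around the clusters gave a further view of where the reads were counted. The antisense row of Nr6a1, the strand that carries mir-181a-2 and mir-181b-2, had 5233, 5229 and 16420 counts in astrocyte EVs, against 40111, 16774 and 12689 counts in NSC EVs. The summed hairpins of mir-181a-2 and mir-181b-2 were 88.4%, 80.1% and 80.6% of its size in astrocyte EVs, against 98.1%, 89.0% and 94.7% in NSC EVs. The Nr6a1 sense row had 432, 633 and 2487 counts in astrocyte EVs, against 702, 488 and 467 counts in NSC EVs, so the table separated the strands for this gene. The antisense row is thus close in size to the miRNA counts and was not taken as an independent measure of transcription on that strand.

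Nanos3, whose intron holds mir-181c and mir-181d on the same strand, had 0, 4 and 10 counts in its sense row in astrocyte EVs, against 4, 7 and 2 counts in NSC EVs. The groups overlapped, and with 0 to 10 unscaled counts per library the row is near the floor. It cannot decide whether Nanos3 RNA fell with the miRNAs of its intron. In the same libraries miR-181d-5p alone had 72 to 683 counts in astrocyte EVs and 1530 to 4681 counts in NSC EVs. The Nanos3 sense row thus did not hold the reads of these miRNAs.

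With each library left out in turn, all 4 members stayed lower in astrocyte EVs. Only miR-181b-5p among them passed the test in every omission, and miR-181a-5p passed in 1 of 6.

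**Figure D4:**
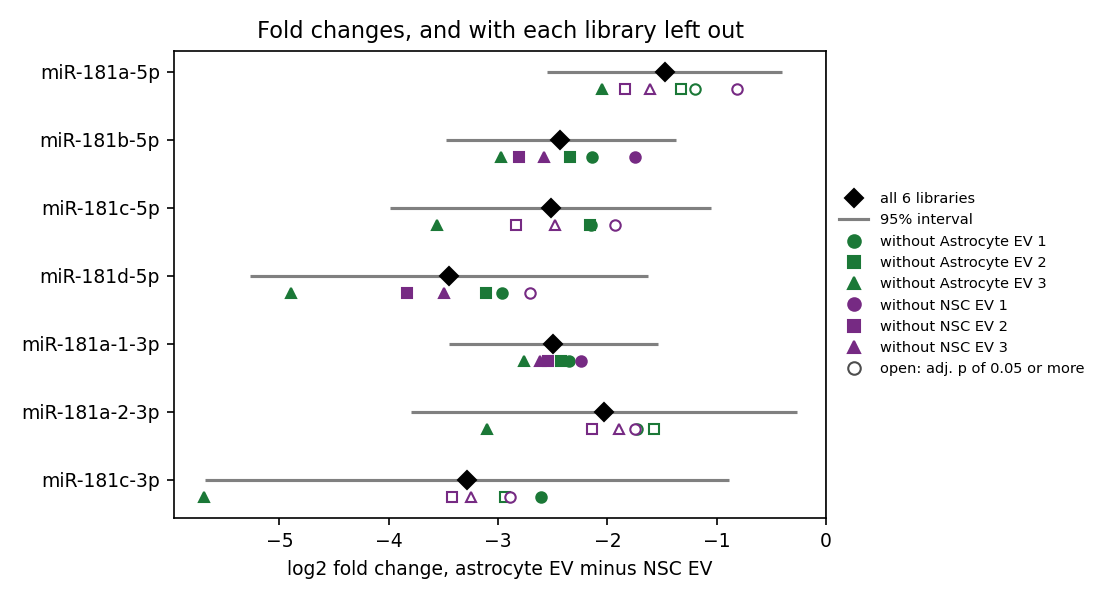
Log2 fold change, astrocyte EV minus NSC EV, of the 4 miR-181 5p members and the 3 tested 3p arms (diamonds, with 95% intervals), and below each the value with 1 library left out, filled where the adjusted p stayed under 0.05. All values lie below 0; miR-181b-5p and miR-181a-1-3p are filled throughout, and omission of astrocyte EV replicate 3 gives the most negative value for each miRNA.

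Across the 6 libraries the members ran closely together: Pearson's r of log2(CPM + 1) was 0.961 to 0.994 over the 6 pairs and highest for miR-181c-5p with miR-181d-5p, given as a description since the libraries share the 2 EV types. Outside the family, miR-872-5p (r = 0.983), miR-134-5p (0.977), miR-93-5p (0.958), miR-485-3p (0.953) and miR-3535 (0.947) were most like miR-181a-5p over the 6 libraries. Of these, miR-93-5p, of the miR-17 family that promotes proliferation, passed the test, with 613, 776 and 1209 CPM in astrocyte EVs, against 5214, 3693 and 3007 CPM in NSC EVs (log2 fold change -2.20, edgeR adjusted p = 0.00481; -2.72 without astrocyte EV replicate 3), and the other 4 had log2 fold changes of -0.85 to -2.57 that did not.

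Most like miR-181c-5p were miR-5099 (r = 0.979), miR-335-3p (0.972), miR-6540-5p (0.971), miR-126a-3p (0.967) and miR-3099-3p (0.948). All 5 shared with miR-181c-5p an astrocyte EV group in which replicate 3 was the highest library. The same held for miR-181a-5p and the 5 miRNAs most like it. MiR-126a-3p, of endothelial cells, had 0.0, 0.0 and 12.6 CPM in astrocyte EVs, against 319, 436 and 229 CPM in NSC EVs. MiR-9-5p itself had r of 0.888 to 0.948 with the 4 members, and was 1245, 1955 and 48244 CPM in astrocyte EVs, against 103304, 132450 and 97177 CPM in NSC EVs.

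Other families with at least 4 tested members of 1 seed, among tested miRNAs with a RefSeq sequence, are set beside miR-181 as a description. The miR-17 family (miR-17-5p, miR-20a-5p, miR-93-5p and miR-106b-5p), which promotes cell cycle progression, was lower for 4 of 4, with log2 fold changes of -5.45 to -2.20. The let-7 family, which promotes differentiation, had 2 higher and 2 lower of 9 (-2.63 to 1.75), and the miR-15/16 family had 1 lower of 5 (-2.25 to -0.74). Of all tested miRNAs 22.3% were higher and 25.8% lower, so the counts of the let-7 and miR-15/16 families were near that share. The miR-30 family had 0 of 4 past edgeR's quasi-likelihood test (-2.20 to 0.56). The miR-181 members spanned -3.45 to -1.47, with a median of -2.47 beside -0.06 over all 256 tested miRNAs. Without astrocyte EV replicate 3 the miR-17 and let-7 families gave the same counts of calls, while the miR-15/16 family had 3 lower of 5 and the miR-30 family 1 lower of 4, and the median of the miR-181 members was -3.27, beside -0.27 over all tested.

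**Figure D5:**
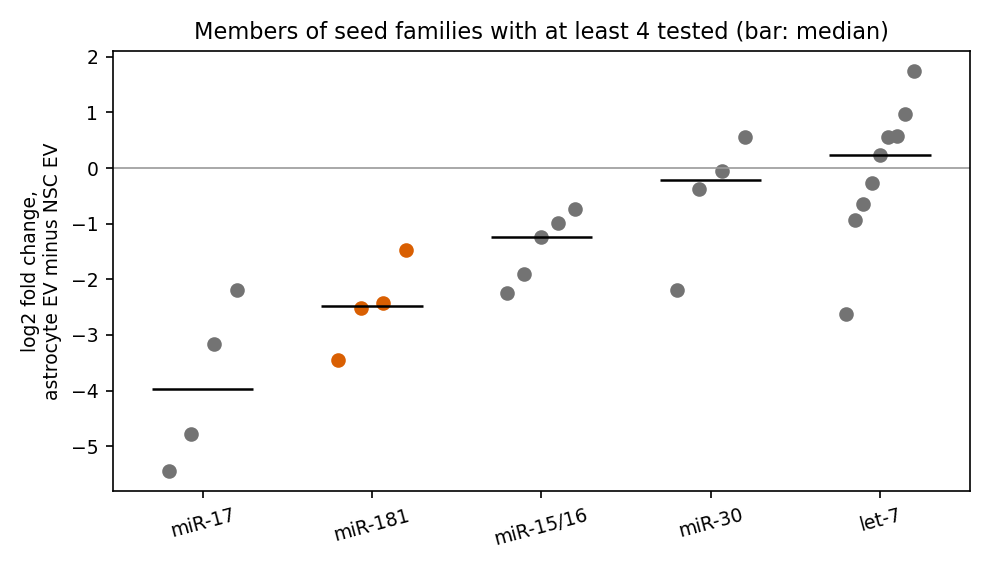
Log2 fold change, astrocyte EV minus NSC EV, of each tested member of 5 families that share bases 2 to 8 and have at least 4 tested members (points; bars at medians), with miR-181 in orange. The 4 miR-181 members lie between -3.45 and -1.47, above the median of the miR-17 family and below the other 3 families' medians.

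MiRNAs linked to astrocyte stress and inflammation, the processes miR-181 is often studied in, were examined beside it. Of the 12 listed miRNAs, 10 were tested: 7 were higher in astrocyte EVs, 1 was lower and 2 did not pass, beside 22.3% higher and 25.8% lower of all tested miRNAs (median log2 fold change 2.74, beside -0.06 over all tested). MiR-21a-5p, induced in reactive glia, had 30656, 36699 and 16287 CPM in astrocyte EVs, against 3990, 4340 and 2828 CPM in NSC EVs. MiR-146b-5p, which restrains NF-κB signaling, had 11240, 9502 and 8721 CPM in astrocyte EVs, against 962, 481 and 718 CPM in NSC EVs (log2 fold changes 2.91 and 3.77; edgeR adjusted p = 0.00271 and 0.000895).

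MiR-155-5p, which promotes inflammatory responses, rose as well (log2 fold change 2.93, edgeR adjusted p = 0.00617), whereas miR-146a-5p, an inhibitor of the same NF-κB pathway, had a log2 fold change of 0.99 that did not pass (adjusted p = 0.0896). MiR-125b-5p was the one that fell (-1.74, adjusted p = 0.0280). Without astrocyte EV replicate 3 miR-21a-5p still rose (edgeR adjusted p = 0.000238), the log2 fold changes of miR-146b-5p, miR-155-5p, miR-146a-5p and miR-125b-5p were 3.71, 3.09, 0.82 and -1.60, and 8 of 11 tested miRNAs of the list were higher and 1 lower.

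Because miR-181 is also abundant in lymphocytes and other cells, marker miRNAs were examined beside it. Of 5 white blood cell and microglia markers, summing to 988 to 3214 CPM in astrocyte EVs and 260 to 391 CPM in NSC EVs, 3 were tested. Of these, 2 were higher and 1 lower, beside 22.3% higher and 25.8% lower of all tested miRNAs. MiR-155-5p, 1 of the higher, also stands in the stress list. Another marker of that list, miR-223-3p, had 0, 1 and 5 counts in astrocyte EVs and 0 in every NSC EV library. MiR-150-5p, of mature lymphocytes, had 0 in every astrocyte EV library, against 14, 19 and 13 counts in NSC EVs. MiR-142a-5p, of blood-derived cells, rose, with 28, 139 and 73 counts in astrocyte EVs, against 7, 13 and 6 counts in NSC EVs (log2 fold change 3.15, edgeR adjusted p = 0.0145; 3.16 without astrocyte EV replicate 3). MiR-142a-3p of the same hairpin was not tested, with 6, 0 and 14 counts in astrocyte EVs and 0 in every NSC EV library.

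Red blood cell markers were higher in astrocyte EVs for 4 of 4 tested, beside 22.3% of all tested miRNAs. They summed to 19435 to 101933 CPM in astrocyte EVs and 930 to 1640 CPM in NSC EVs. Most of that sum was miR-486a-5p, at 18908, 39767 and 101105 CPM in astrocyte EVs, where miR-451a had 366, 806 and 478 CPM. Without the red blood cell miRNAs, a set that named miR-486b-5p besides these 4, all 4 miR-181 members still passed the test. Mesenchymal markers were higher for 2 of 2 tested of 4. They summed to 6600 to 97249 CPM in astrocyte EVs and 860 to 1861 CPM in NSC EVs. Endothelial markers were lower for 2 of 2, beside 25.8% of all tested miRNAs. Their sums were 69.2 to 191 CPM in astrocyte EVs and 934 to 1730 CPM in NSC EVs. Median log2 fold changes of the red blood cell, mesenchymal and endothelial lists were 5.52, 5.72 and -4.63. Without astrocyte EV replicate 3 they were 5.15, 6.04 and -6.28. In that fit 4 of 4, 4 of 4 and 2 of 2 tested were called in the same directions.

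The neuronal marker miR-124-3p was at 0 counts in every astrocyte EV library, against 46, 157 and 41 counts in NSC EVs. Of 3 oligodendrocyte markers only miR-219a-2-3p was tested, and with 0, 0 and 23 counts in astrocyte EVs, against 14, 6 and 9 counts in NSC EVs, it did not pass. The neural progenitor markers miR-9-5p and miR-9-3p summed to 1245 to 48272 CPM in astrocyte EVs and 98674 to 134431 CPM in NSC EVs, with miR-9-3p lower (edgeR adjusted p = 0.00666) and miR-9-5p not past the test (0.130). Without astrocyte EV replicate 3 miR-9-5p passed (log2 fold change -6.30, adjusted p = 1.28e-05), as did miR-219a-2-3p, at 0 counts in the other astrocyte EV libraries. The part of these cell types in the miR-181 differences was not tested.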

How the data were processed

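Small RNA was sequenced from 3 astrocyte EV and 3 NSC EV libraries. The authors deposited raw whole-number counts per annotated row and library, and the tools in the submitters' processing notes are Bowtie and Bowtie2, bedtools, cutadapt, DESeq, FastQC and SAMtools, on mm10, without versions. The paper and the series record name different library kits and sequencers. The authors' own fold changes and p-values were not used. Groups followed the labels.

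Mature rows were tested with edgeR 4.0.16 in R 4.3.3 by its quasi-likelihood test, after TMM scaling and filterByExpr, in a model of group alone. Mature rows alone made up the library size, and p-values were Benjamini-Hochberg adjusted over 256 tested miRNAs and called under 0.05. Ratios within a library used 0.5 added to each count and an exact two-sided permutation test (scipy 1.17.1). Wilson intervals are at 95% and cover counting error only. Replicates of a group differed by more than sampling noise (chi-square per degree of freedom at least 12.3). The script was tested on simulated data. The members, marker and stress lists and the comparisons were chosen with earlier results of these data known. Named rows were the members, their arms and hairpins, genes at the loci, and the 5 miRNAs most correlated with miR-181a-5p and with miR-181c-5p. Also named were seed families of at least 4 tested members, and up to 4 most abundant of the stress list. MiR-125b-5p falls outside this rule and was named after its values were seen. Genes at each locus are from GENCODE vM21. Alternatives were DESeq2 1.42.0, other size factors, library sizes and filters, omission of each library, a block for the replicate number, and red blood cell miRNAs left out.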

Additional observations from a re-analysis of the deposited data

How the results depend on the processing

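All 4 members stayed lower in astrocyte EVs under all 14 alternatives, and passed the test in the 8 that left out no library. With the replicate number as a block (replicate block) the log2 fold changes of the a, b, c and d members were -1.48, -2.41, -2.83 and -3.89 (edgeR adjusted p = 0.0395, 0.0122, 0.0117 and 0.00985), and 45 miRNAs were higher and 55 lower. Same-numbered libraries did not deviate together beyond r of 0.05, 0.10 and 0.05, so the numbers were not taken as pairs. With each library left out, the log2 fold changes ranged from -2.05 to -0.81 for miR-181a-5p, -2.97 to -1.75 for miR-181b-5p, -3.56 to -1.93 for miR-181c-5p and -4.89 to -2.71 for miR-181d-5p, and the count of 3p arms that were lower, 2 with all libraries, ranged from 1 to 3. Taking library size over every non-hairpin row moved the median of all tested miRNAs by over 0.1, to -0.92 from -0.06, and gave 32 higher and 96 lower of 270, against 57 and 66, with members at -2.38, -3.34, -3.37 and -4.32. The minimum of 10 counts moved that median to -0.26, with 57 higher and 83 lower, and the block moved it to -0.29. It moved up to 0.12 with no low-count filter, with 69 higher and 69 lower. Across omissions of 1 library it ran from -0.27 (astrocyte EV replicate 3 left out) to 0.24 (NSC EV replicate 1 left out). Left-out libraries gave 34 to 69 higher and 45 to 93 lower. MiR-181a-2-3p passed with DESeq2 (-2.02), no TMM (-2.25), non-hairpin library sizes (-2.83), the minimum of 10 counts (-2.24) and without astrocyte EV replicate 3 (-3.10). The log2 ratio of b to c had a difference of -0.0033 without astrocyte EV replicate 2, and ranged from there to 0.74. The other pair differences ranged from 0.86 (c to d) to 2.86 (a to d) and kept their sign, with an exact p no lower than 0.2 with 2 libraries in a group, and a pseudocount of 1 moved none by more than 0.01. Of all non-hairpin counts the family took 0.00829% ± 0.0042 in astrocyte EVs and 0.0554% ± 0.0369 in NSC EVs (SD, n = 3 each), a log2 ratio of -2.74. The cause of these changes was not tested. Depth limits the 3p arms, with 1 to 56 counts per astrocyte EV library.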
